A study of Mus musculus with 32 samples.

Results

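Interscapular brown adipose tissue (iBAT) is the thermogenic fat depot that lies between the scapulae. The comparison described here is that of ZT15 with ZT12, the first hours of the dark phase, when mice become active and start to feed. Zeitgeber time (ZT) counts hours from lights on, so that ZT12 is lights off and ZT15 lies 3 h into the dark. The libraries are those that carry either time label: 4 mice at ZT12 and 4 at ZT15, together 8 of the 32 libraries of the series, 1 library per mouse. All were non-fasted male C57BL/6J mice aged 10 weeks, fed chow, kept below thermoneutrality in a cycle of 12 h light and 12 h dark, with no further treatment, so the groups differ by label only in the time of killing. Each time point holds different animals, and no mouse was followed over time. Both time points were sequenced on lane 3.

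The molecular clock is a loop in which BMAL1 (gene Arntl) and CLOCK activate the Per, Cry and Nr1d genes, whose proteins in turn repress the activators. Beside this local loop, daily cycles of feeding, hormones and body temperature reach the tissue. Heat-shock genes encode chaperones that fold proteins and are switched on by the factor HSF1, and Cirbp and Rbm3 encode RNA-binding proteins known to be induced by mild cooling. In the tissue itself, fatty acids fuel uncoupled respiration through UCP1.

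Total counts ran from 16300770 to 17623593 in the 8 libraries, so that 3 counts in 1 library stood for 0.158 to 0.182 CPM (counts relative to the library total, after TMM scaling between libraries); this floor covers counting error only. Mitochondrially encoded genes took 23.2% ± 0.653 of all counts at ZT12 and 23.9% ± 1.89 at ZT15 (SD, n = 4 each, exact permutation test, two-sided, p = 0.714). The mice of a group were compared by the chi-square of their counts per gene. Replicate 1 of ZT15 stood apart, with 66.8 to 85.8 against the other ZT15 mice, which lay 8.13 to 13.1 from each other; the ZT12 mice lay 14.1 to 32.9 apart. In that mouse the summed level of 21 lipogenesis genes was 23140 CPM, against 76300 to 82890 CPM in the other ZT15 mice and 66670 to 93580 CPM at ZT12.

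The brown fat markers were well expressed: Ucp1 was at 2621 ± 1217 CPM at ZT12 and 1768 ± 426 CPM at ZT15, and Cidea at 1881 and 1893 CPM. Of 8 white fat markers 2, Hoxc10 and Tcf21, had no count in either group, while the 5 tested ones were expressed; the list summed to 150 to 245 CPM at ZT12 and 209.7 to 344 CPM at ZT15. Of 12 brown fat identity markers 1, Prdm16, fell and 11 did not pass the test. Skeletal muscle markers varied from mouse to mouse in both groups, with a summed level of 74.5 to 7919 CPM at ZT12 and 864 to 8106 CPM at ZT15, and 0 of 13 passed the test. All 13 had positive log2 fold changes (median 0.52, and 2.20 without replicate 2 of ZT12). Log2 fold changes were positive for 5 of 5 blood, 3 of 5 white fat and 2 of 4 nerve markers, and negative for 12 of 14 leukocyte markers. With such spread between mice, missing the threshold does not show an even tissue content. None of the tested blood (0 of 5), leukocyte (0 of 14), white fat (0 of 5) or nerve (0 of 4) markers passed it either (edgeR), and 0 of these and of the muscle markers had an unadjusted p under 0.05. In bulk tissue, fewer cells of a type and less RNA per cell cannot be told apart.

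Across all 15505 tested genes, 472 differed at an adjusted p under 0.05 (edgeR's quasi-likelihood test, Benjamini-Hochberg adjustment), which is 3.04% of them. Of these, 314 were higher at ZT15 (2.03% of all tested genes) and 158 lower (1.02%). Most changes were small: the median fold of the genes past the threshold was 1.39, and 64 exceeded 2-fold, 39 of them higher and 25 lower. The mice of the time points did not overlap in 420 of the 472, where 1564 of all tested genes (10.1%) showed such a separation. The count changed with the libraries fitted. With the 8 libraries alone 84 genes passed, and with the 12 libraries of lane 3 97 passed. Leaving out 1 mouse gave 183 (without replicate 4 of ZT15) to 471 genes (without replicate 2 of ZT15); it gave 246, 210, 262 and 398 without replicates 1, 2, 3 and 4 of ZT12, and 364 and 229 without replicates 1 and 3 of ZT15.

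**Figure D1:**
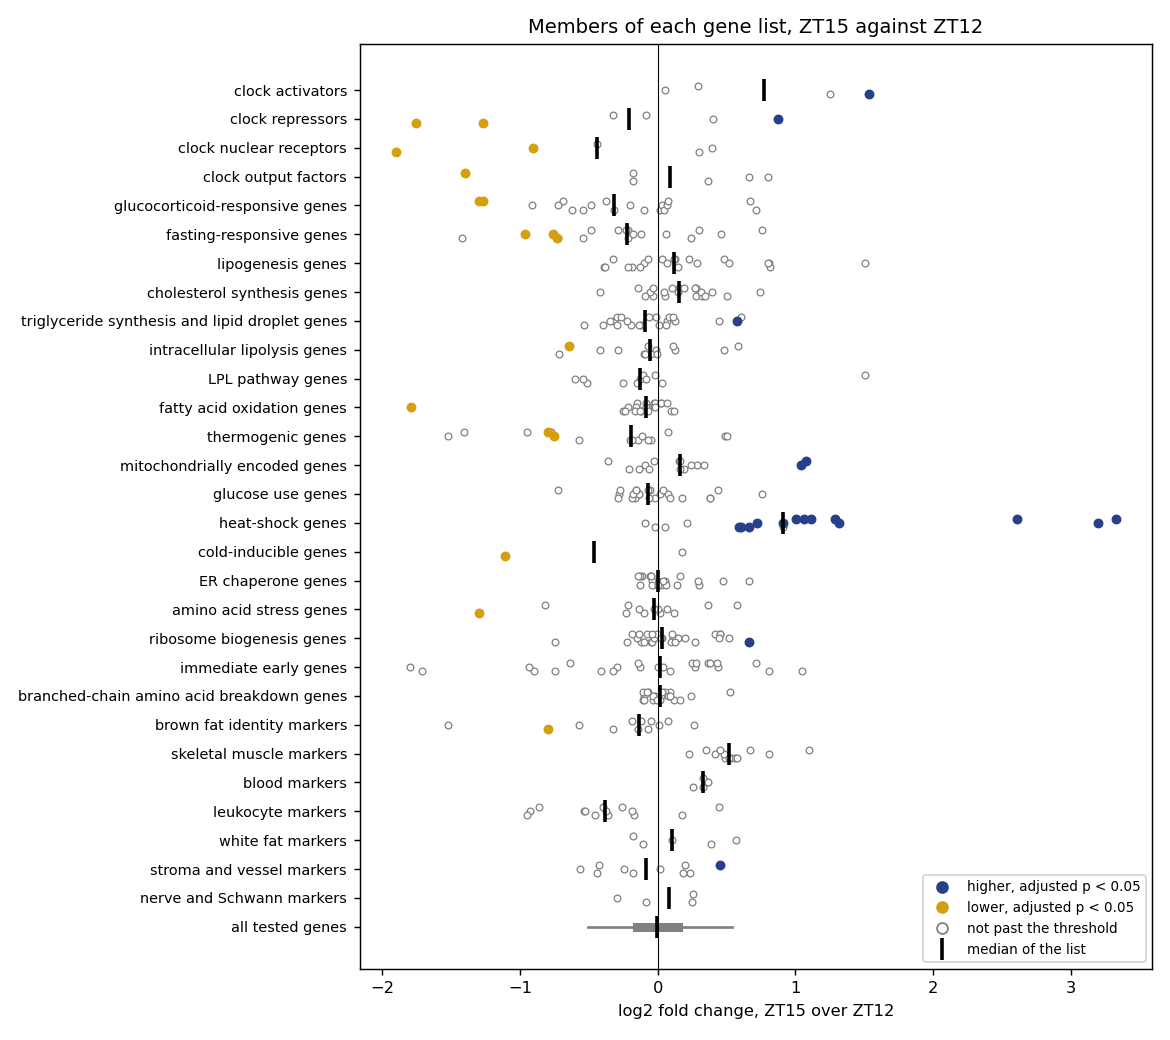
Each point is a member of a gene list, placed by its log2 fold change of ZT15 over ZT12 (horizontal axis); filled points passed the adjusted threshold, black ticks are list medians, and the bottom row gives the 5th to 95th percentile (thin), quartiles (thick) and median of all tested genes. The heat-shock row lies to the right with a median of 0.91, and 13 of its 18 points are filled.

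With all mice, the heat-shock genes had the highest median among the lists. Of 18 tested members 13 rose, 0 fell and 5 did not pass the test, and their median log2 fold change was 0.91, against -0.01 over all tested genes. The members that rose cover the cytosolic chaperone machinery: the inducible HSP70s Hspa1a and Hspa1b, the constitutive HSP70 Hspa8, the HSP110 exchange factor Hsph1, the HSP40s Dnaja1, Dnajb1 and Dnajb4, the HSP90s Hsp90aa1 and Hsp90ab1 with their co-chaperones Ahsa1 and Chordc1, the small chaperone Hspb1, and the HSP70 co-chaperone Bag3. Those that did not pass were the mitochondrial chaperonin genes Hspd1 (log2 fold change -0.02) and Hspe1 (-0.09), Hspa4 (0.05), the lens and muscle chaperone Cryab (0.91, adjusted p = 0.391) and the factor Hsf1 itself (0.21). Of 22 chaperone and stress genes of the endoplasmic reticulum 0 passed the test, with a median of 0.00 (edgeR; 3 at an unadjusted p under 0.05, 0 by DESeq2); their main chaperone Hspa5 was at 249 ± 9.89 CPM at ZT12 and 256 ± 15.7 CPM at ZT15. In some fits another list had a higher median than the heat-shock genes. Without replicate 1 of ZT12 the clock activators did (0.96 against 0.85), and without replicate 2 of ZT12 the muscle markers did (2.20 against 1.02). With the 8 libraries alone 7 heat-shock genes passed, and against a 1.5-fold change 4 did. Leaving out 1 mouse gave 11 to 13. The calls lost with the 8 libraries were those of Hspa1b (adjusted p = 0.0610), Hspa1a (0.0703), Dnajb1 (0.0703), Hspb1 (0.0790), Hsp90aa1 (0.105) and Hsp90ab1 (0.107).

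The sequence in front of some of these genes is shown because they are known targets of HSF1. HSF1 binds inverted repeats of the unit GAA. In the 250 bases before the start of each gene, read from RefSeq promoters (GRCm38.p6), the long element of 3 units was found in 0 of the 10 risen heat-shock genes that had a promoter entry. A pair of inverted units, GAANNTTC or TTCNNGAA, was found in 6 of the 10, in 11.5% of the 234 higher genes with an entry, in 8.40% of the 119 lower genes and in 12.2% of 10910 tested genes; this shorter form was chosen after the longer one had been counted. In the lines below, capitals mark that pair, and each stretch is given 5′ to 3′ on the strand of its gene.
Hspa1b (chr17:34959305-34959372, minus strand): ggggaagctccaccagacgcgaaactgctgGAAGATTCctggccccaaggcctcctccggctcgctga
Hsph1 (chr5:149636332-149636399, minus strand): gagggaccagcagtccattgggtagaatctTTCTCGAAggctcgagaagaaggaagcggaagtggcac
Dnaja1 (chr4:40722314-40722381, plus strand): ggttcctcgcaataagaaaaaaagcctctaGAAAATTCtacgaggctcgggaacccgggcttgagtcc
Hspb1 (chr5:135887792-135887859, plus strand): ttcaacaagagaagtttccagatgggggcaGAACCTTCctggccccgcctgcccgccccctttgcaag
The stretch in front of Hspa1a (chr17:34972223-34972290, minus strand) reads the same as that of Hspa1b. The Hspb1 line holds another such pair, gaagtttc, in lower case, ahead of the one in capitals. The marked pairs of Hsph1 and Dnaja1 lie within the gene spans of GENCODE, whose starts differ from the RefSeq starts used for the windows. The genes counted had all been chosen as risen, those without the pair too, and such letters describe the window and are not evidence of binding.

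Hspa1b, encoding inducible HSP70 (chr17:34956436-34959238, minus strand), measured 1.14, 1.63, 1.03 and 1.10 CPM in the ZT12 mice and 14.4, 1.48, 15.4 and 18.1 CPM in the ZT15 mice, replicates 1 to 4. In 3 of the 4 ZT15 mice the gene was far above every ZT12 mouse, while replicate 2 lay within the ZT12 range. The fitted change was 10.1-fold (log2 fold change 3.33 ± 0.51, SE, adjusted p = 0.000493). Its neighbour Hspa1a gave the same picture, with a mean of 1.06 ± 0.0962 CPM before and 9.78 ± 5.89 CPM after dark onset (SD, n = 4) and 1.06 CPM in replicate 2 of ZT15. The transcripts of the pair share 63.8% (of Hspa1a) and 67.6% (of Hspa1b) of their stretches of 31 bases, so how counts divide between them is uncertain.

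Hsph1, the nucleotide exchange partner of HSP70 (chr5:149614287-149636376), was at 19.8, 29.2, 15.1 and 19.0 CPM at ZT12 and at 151, 63.1, 145 and 149 CPM at ZT15. The groups did not overlap, and again replicate 2 was the lowest ZT15 mouse. It rose 6.10-fold (log2 2.61 ± 0.34, SE, adjusted p = 0.000159), and none of its 31-base stretches occurs in another annotated transcript. Dnaja1, an HSP40 that hands substrates to HSP70, rose from 46.4 ± 3.05 to 116 ± 27.0 CPM (2.50-fold, adjusted p = 0.000159). Chordc1, a partner of HSP90, rose from 31.9 ± 4.01 to 69.0 ± 10.6 CPM. Dnajb1 rose 2.08-fold and Hspb1 2.44-fold, with replicate 2 of ZT15 at 27.0 and 22.1 CPM, just above the highest ZT12 mice (26.1 and 21.5 CPM). Hspa8, the abundant constitutive HSP70, rose 1.88-fold without overlap, from 266 to 389 CPM at ZT12 to 560 to 712 CPM at ZT15.

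Replicate 2 was thus the lowest ZT15 mouse in 12 of the 13 risen heat-shock genes. Replicates 1, 3 and 4 lay above every ZT12 mouse in 13 of 13 genes, and replicate 2 in 10. Without replicate 2 of ZT15 13 members passed, and without replicate 1, 3 or 4 of ZT15 11 did. The same mouse was the lowest at ZT15 for 169 of all 314 higher genes. Calls for the HSP90 genes were weaker. Hsp90aa1 overlapped between groups (36.4 to 75.1 CPM at ZT12, 70.3 to 127 CPM at ZT15) and was lost on leaving out any 1 mouse other than replicate 1 of ZT12 or replicate 2 of ZT15, with an adjusted p of up to 0.112 without replicate 4 of ZT15. Hsp90ab1 was lost without replicate 1 (adjusted p = 0.0619), 3 (0.0538) or 4 (0.0566) of ZT15, and Ahsa1 without replicate 3 of ZT12 (0.0537).

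**Figure D2:**
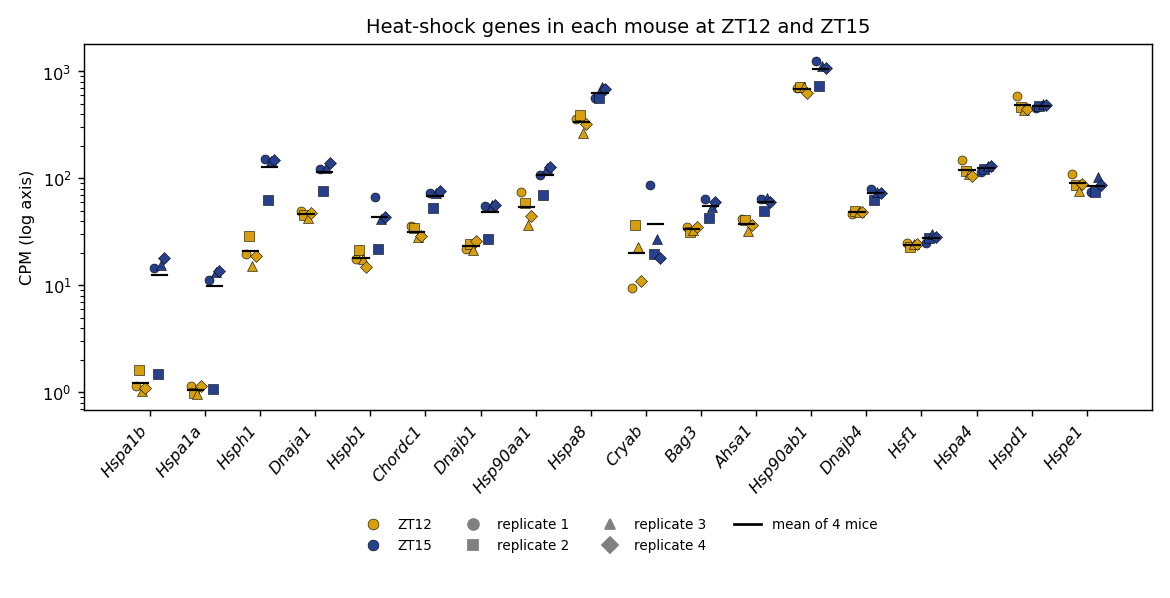
CPM (log axis) of the 18 heat-shock genes in each mouse, ordered by fold change, with ZT12 in yellow and ZT15 in blue; the symbol gives the replicate number and the bar the mean of 4 mice. The blue square, replicate 2 of ZT15, lies below the other blue points in 12 of the 13 genes that rose, and for Hspa1a and Hspa1b among the yellow ones.

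Several processed pseudogenes were called with their parents. Gm15542 and Gm7816 share 83.5% and 79.8% of their 31-base stretches with Dnaja1 and rose 2.56-fold and 2.51-fold, as Dnaja1 did, so reads of the parent gene may be counted in them. Over all genes, 11 of the 314 higher and 2 of the 158 lower were processed pseudogenes, against 830 of 15505 tested. Gm2673, another processed pseudogene at 0.641 ± 0.0818 and 1.62 ± 0.494 CPM, lies antisense to Cxcl11 over 98.4% of its exonic bases, and the strand setting of the counting is not given in the sources used here. Gm2673 stayed past the threshold in 3 of 8 fits without 1 mouse, those without replicate 4 of ZT12 and replicates 1 and 2 of ZT15, and its adjusted p was at most 0.0861 (without replicate 4 of ZT15).

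Cirbp, the cold-inducible RNA-binding protein (chr10:80165985-80172786), moved the other way. It was at 29.1, 30.5, 34.0 and 26.2 CPM in the ZT12 mice and at 17.8, 14.8, 11.1 and 12.0 CPM in the ZT15 mice. Every ZT15 mouse, replicate 2 included, lay below every ZT12 mouse. Cirbp fell 2.15-fold (log2 fold change -1.10 ± 0.18, SE, adjusted p = 0.000829). Rbm3, the other cold-inducible gene of the list, was at 36.6 ± 4.33 and 41.5 ± 4.61 CPM and did not pass the test (0.18, adjusted p = 0.499).

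In the clock loop, 5 of the 21 genes of its 4 lists fell and 2 rose. The strongest fall was that of Nr1d1, which encodes the repressor REV-ERBα (chr11:98767932-98775333). It measured 154, 111, 117 and 114 CPM at ZT12 and 35.4, 35.6, 31.9 and 30.2 CPM at ZT15, with no overlap. Nr1d1 fell 3.73-fold (log2 fold change -1.90 ± 0.23, SE, adjusted p = 7.87e-05). Its relative Nr1d2 fell from 136 ± 14.7 to 72.9 ± 15.0 CPM (1.87-fold). Dbp, an output factor that binds D-boxes, fell from 124 ± 19.0 to 46.9 ± 5.56 CPM (2.63-fold, adjusted p = 0.000951). Of the repressors, Ciart fell from 17.8 ± 3.74 to 5.27 ± 1.41 CPM (3.37-fold, adjusted p = 0.000493) and Per1 from 118 ± 14.7 to 49.1 ± 16.1 CPM (2.40-fold, adjusted p = 0.0201). The call of Per1 was lost without replicate 3 of ZT12 (adjusted p = 0.0572) and without replicates 1, 3 or 4 of ZT15 (0.0619, 0.0577 and 0.0765).

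Arntl, encoding BMAL1 (chr7:113207465-113314126), was near its daily low at both times: 1.38, 0.988, 0.971 and 1.26 CPM at ZT12 and 3.21, 2.96, 2.91 and 4.34 CPM at ZT15. The mice did not overlap, and the gene rose 2.90-fold (log2 fold change 1.54 ± 0.32, SE, adjusted p = 0.00743). With the 12 libraries of lane 3 the call was lost (adjusted p = 0.0894). Cry1, a late repressor of the loop, rose from 15.8 ± 2.40 to 29.0 ± 2.81 CPM (1.83-fold, adjusted p = 0.00134). Clock, the partner of BMAL1, was at 41.7 ± 2.23 and 51.2 ± 3.31 CPM and did not pass the test (adjusted p = 0.0929), although the mice did not overlap. Per2 (83.2 ± 7.04 and 110 ± 13.0 CPM, adjusted p = 0.369) and Per3 (213 ± 13.5 and 170 ± 19.8 CPM, adjusted p = 0.390) did not pass it. Npas2 was at 0.0746 and 0.180 CPM, around the floor of 3 counts, and no fold is given.

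BMAL1 and CLOCK bind the E-box CACGTG. It was found in the 250 bases before the start in 21 of the 119 lower genes with a promoter entry (17.6%), in 17 of 234 higher genes (7.26%) and in 9.65% of the tested genes with an entry. Ciart, with a triple occurrence, is shown, together with Per1, with the E-box in capitals.
Ciart (chr3:95882237-95882302, minus strand): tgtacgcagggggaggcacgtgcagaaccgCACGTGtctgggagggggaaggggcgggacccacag
Ciart (chr3:95882309-95882374, minus strand): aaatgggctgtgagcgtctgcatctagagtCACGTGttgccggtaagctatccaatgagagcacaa
Per1 (chr11:69098753-69098818, plus strand): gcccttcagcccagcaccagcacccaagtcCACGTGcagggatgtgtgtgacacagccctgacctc
The first Ciart line holds another copy in lower case, ahead of the one in capitals. The Per1 stretch lies within the GENCODE span of that gene, which starts ahead of the RefSeq start used. Other motifs were searched on both strands in the same windows. The D-box, TTATGTAA or TTACGTAA, was in 0.855% of higher, 0.840% of lower and 0.742% of tested genes. The cAMP response element TGACGTCA was in 2.99% of higher, 0 of the 119 lower and 2.94% of tested genes, the glucocorticoid receptor motif AGAACA in 8.55%, 15.1% and 13.1%, and the heat-shock element of 3 units in 0.427%, 0 of 119 and 0.495%. These shares were not tested, and no match says only that these letters are not in this window.

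Among genes that respond to fasting and glucocorticoids, those past the test with all mice fell. Of 18 tested fasting-responsive genes 3 fell and 0 rose, with a median log2 fold change of -0.22, which was -0.36 without replicate 1 of ZT12 and -0.41 without replicate 1 of ZT15; without 1 mouse 1 to 3 fell, and without replicate 3 of ZT15 1 rose. Foxo1, the transcription factor that insulin signalling holds out of the nucleus, was tight at ZT12 (97.5, 103, 98.4 and 98.7 CPM) and measured 70.2, 68.7, 53.8 and 47.1 CPM at ZT15. It fell 1.66-fold without overlap (log2 fold change -0.73 ± 0.13, SE, adjusted p = 0.00244). Klf15, a factor of amino acid and glucose handling in fasting, fell from 50.5 ± 11.4 to 25.9 ± 6.27 CPM with overlap; its call was lost without replicate 2 (adjusted p = 0.0504) or 4 (0.0503) of ZT12 or replicate 4 of ZT15 (0.0761). Fbxo21, a ubiquitin ligase subunit, was at 155 ± 6.98 and 91.1 ± 26.7 CPM (adjusted p = 0.0467) and passed in only 1 of 8 fits without 1 mouse, that without replicate 1 of ZT15; leaving out replicate 4 of ZT15 gave the highest adjusted p, 0.157.

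Other known fasting genes did not pass the test. Irs2, the insulin receptor substrate that fasting induces, was at 46.9, 26.4, 25.4 and 31.3 CPM at ZT12 and at 18.8, 12.5, 10.3 and 6.98 CPM at ZT15. All ZT15 mice were lower, but the adjusted p was 0.299. Pdk4, which shuts pyruvate out of oxidation, was at 755 ± 196 and 458 ± 124 CPM (adjusted p = 0.279), again without overlap. Pck1 (2559 ± 490 and 1830 ± 624 CPM, adjusted p = 0.483) and Angptl4, the inhibitor of lipoprotein lipase (151 ± 69.4 and 104 ± 71.7 CPM, adjusted p = 0.589), overlapped. Replicate 1 of ZT15 held the highest ZT15 value of each of these 4 genes.

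Of 19 tested glucocorticoid-responsive genes 2 fell, Per1 and Ddit4, and the median was -0.31. With the 12 libraries of lane 3 0 of 19 passed, and without replicate 4 of ZT12 the median was -0.07. Ddit4, an inhibitor of mTORC1 also counted among the amino acid stress genes (1 of 13 lower), went from 30.8, 50.2, 45.6 and 37.0 CPM to 10.4, 20.4, 20.4 and 15.2 CPM. It fell 2.46-fold without overlap (adjusted p = 0.00537), a call lost with the 12 libraries of lane 3 (0.0748). The classical glucocorticoid targets Fkbp5 (28.5 ± 16.3 and 45.3 ± 14.2 CPM, adjusted p = 0.311) and Tsc22d3 (84.6 ± 15.1 and 89.2 ± 9.62 CPM, adjusted p = 0.869) did not pass the test.

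Where 3.04% of all tested genes passed, few or none are expected in lists of this size. Genes of lipid and glucose handling mostly did not pass the test in this step. It was passed by 0 of 21 lipogenesis, 0 of 21 cholesterol synthesis, 0 of 11 LPL pathway, 0 of 25 glucose use and 0 of 21 branched-chain amino acid breakdown genes, with medians of 0.12, 0.16, -0.13, -0.07 and 0.02 (edgeR). These medians were unsteady when 1 mouse was left out. That of lipogenesis was -0.01 without replicate 2 of ZT15 and 0.20 without replicate 1 of ZT12, that of cholesterol synthesis 0.06 without replicate 2 and 0.33 without replicate 1 of ZT15. That of glucose use was -0.14 without replicate 2 and 0.06 without replicate 1 of ZT15, and that of branched-chain amino acid breakdown -0.03 and 0.05. The LPL pathway stayed between -0.19 and -0.10. At an unadjusted p under 0.05 these lists held 2, 1, 2, 3 and 1 genes, and DESeq2 called 1, 0, 1, 1 and 0. Angptl8, a feeding-induced partner of ANGPTL4, was at 35.2, 19.4, 22.7 and 41.7 CPM at ZT12 and at 19.2, 78.6, 156 and 84.2 CPM at ZT15. It was above every ZT12 mouse in 3 ZT15 mice and below them all in replicate 1; the adjusted p was 0.0695 with all mice and 0.0172 without replicate 1 of ZT15. Without that mouse 2 lipogenesis genes, 1 glucose use gene and 1 gene of branched-chain amino acid breakdown were higher past the test, and without replicate 4 of ZT12 or replicate 2 of ZT15 1 glucose use gene was lower. Fasn, the fatty acid synthase, was at 2931 CPM in that mouse and at 17310 to 20610 CPM in the other ZT15 mice, and Acly, which makes its acetyl-CoA, at 631 CPM against 3039 to 4141 CPM. Lpl was at 4819 ± 645 and 4486 ± 462 CPM (adjusted p = 0.728). Srebf1, Dgat2, Cidec and Pnpla2 had log2 fold changes of 0.07, 0.07, -0.06 and -0.09, none past the test.

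Single genes of lipid metabolism passed the test. In lists of this size that is near the share over all tested genes (3.04%), so it does not set these lists apart. Ehhadh, a peroxisomal enzyme of fatty acid oxidation and the 1 of 22 genes of that list past the test, was at 127, 102, 41.0 and 58.4 CPM at ZT12 and at 18.9, 29.0, 23.8 and 23.4 CPM at ZT15. It fell 3.45-fold without overlap, but the ZT12 mice spread widely (adjusted p = 0.0466), and it kept its call only without replicate 3 or 4 of ZT12, with up to 0.152 without replicate 1 of ZT12. Acsl1, which activates fatty acids with coenzyme A, fell 1.56-fold from 2415 ± 539 to 1544 ± 247 CPM (adjusted p = 0.0239), as 1 of 14 intracellular lipolysis genes; the call was lost without replicates 1 (0.117) or 2 (0.0694) of ZT12 or replicates 1 (0.0823), 3 (0.0502) or 4 (0.0566) of ZT15. Plin3, a lipid droplet coat protein, rose from 120 ± 10.1 to 178 ± 19.2 CPM (1.49-fold, adjusted p = 0.0116), as 1 of 22 triglyceride synthesis and lipid droplet genes, without overlap; the call was lost with the 12 libraries of lane 3 (0.107). Of that list 8 had an unadjusted p under 0.05, and DESeq2 called 1 higher and 3 lower.

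Of 16 tested thermogenic genes 2 fell. The nuclear receptor gene Esrrg fell from 37.5 ± 5.13 to 22.3 ± 3.64 CPM (1.68-fold, adjusted p = 0.00670), and Prdm16, which encodes a coregulator of brown fat identity, from 60.5 ± 14.7 to 34.9 ± 7.52 CPM (1.73-fold, adjusted p = 0.0376). The Prdm16 call was lost without replicates 1, 2 or 3 of ZT12 or replicates 1 or 3 of ZT15 (adjusted p up to 0.145, without replicate 1 of ZT12). Ucp1 measured 4061, 3166, 1860 and 1399 CPM at ZT12 and 1134, 1994, 1911 and 2033 CPM at ZT15, and Dio2, which activates thyroid hormone, 80.0, 63.4, 25.4 and 22.5 CPM and 12.2, 30.6, 10.5 and 13.3 CPM. Both varied more than 2-fold among the ZT12 mice, the groups overlapped, and neither passed the test (adjusted p = 0.312 and 0.246). Ppargc1a was at 44.5 ± 11.5 and 39.0 ± 4.08 CPM.

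**Figure D3:**
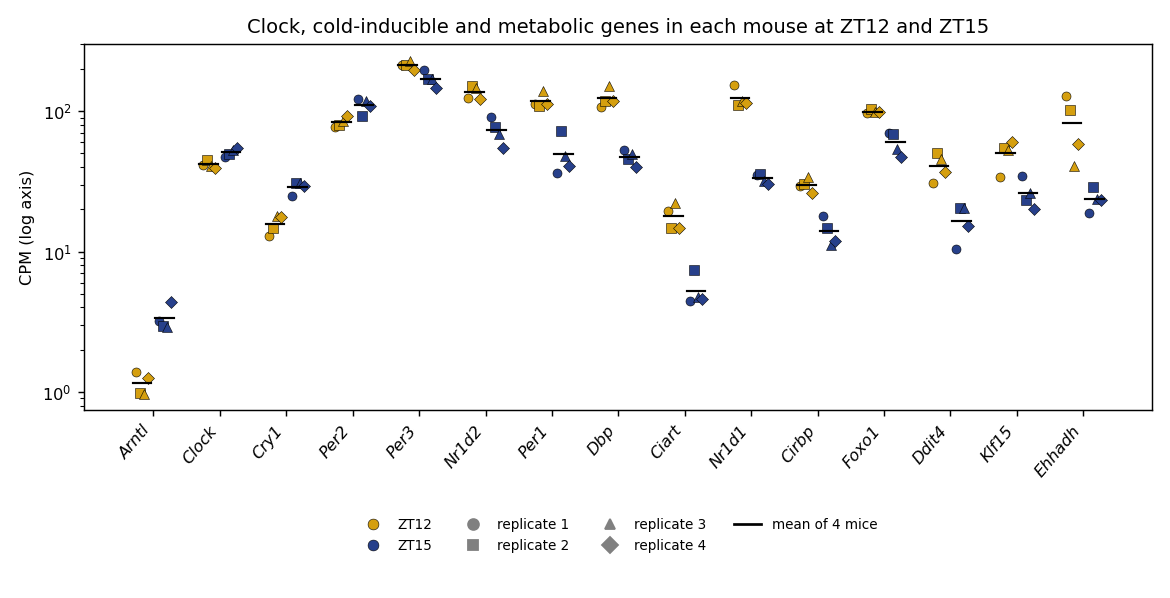
CPM (log axis) of 15 clock, cold-inducible and metabolic genes in each mouse, with ZT12 in yellow and ZT15 in blue; symbols give the replicate number and bars the mean of 4 mice. Nr1d1, Dbp, Ciart, Cirbp and Foxo1 separate fully downwards and Arntl and Cry1 upwards, while the points of Per2 and Klf15 overlap.

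Counts of mitochondrial ribosomal RNA rose, while the mRNAs of the same genome did not pass the test with all mice. Without replicate 2 of ZT15 1 of these mRNAs was lower past it. How much of the ribosomal RNA the libraries captured was not measured, so its level in the tissue is not known. mt-Rnr2 measured 2256, 2048, 1780 and 2242 CPM at ZT12 and 3821, 3942, 4507 and 5296 CPM at ZT15. It rose 2.11-fold without overlap (log2 fold change 1.08 ± 0.17, SE, adjusted p = 0.000829), and mt-Rnr1 2.06-fold (1200 ± 148 and 2474 ± 368 CPM, adjusted p = 0.000387). The share of all counts in the pair was 0.328% ± 0.0381 at ZT12 and 0.697% ± 0.0890 at ZT15 (exact permutation test, two-sided, p = 0.0286, the smallest value that 4 against 4 mice can give). With all mice 0 of the other 13 mitochondrially encoded genes of the list passed the test (edgeR), among them mt-Co1 (0.16) and mt-Nd1 (-0.20). The transfer RNA gene mt-Ti, at 4.41 ± 0.295 and 10.8 ± 4.14 CPM, rose 2.45-fold, a call lost without replicate 1 of ZT15 (adjusted p = 0.0565).

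Several of the strongest changes lay outside the lists. Among the 12 highest folds without overlap were P4ha1, which hydroxylates collagen, Ppp1r3c, which directs glycogen synthesis, Banp, Phyhip and Smtnl2. P4ha1 (chr10:59323296-59373304) was at 12.4, 14.9, 13.6 and 13.5 CPM at ZT12 and at 66.2, 23.0, 42.8 and 48.6 CPM at ZT15, with replicate 2 again the lowest ZT15 mouse, and rose 3.31-fold (adjusted p = 0.000417). Banp, which encodes a nuclear DNA-binding protein, rose from 8.34 ± 0.605 to 21.1 ± 4.72 CPM (2.53-fold, adjusted p = 0.000234). Ppp1r3c rose from 92.1 ± 16.6 to 249 ± 71.1 CPM (2.71-fold, adjusted p = 0.00218). Phyhip rose from 0.572 ± 0.302 to 3.59 ± 1.28 CPM (6.22-fold); its call was lost without replicates 2 (adjusted p = 0.0596) or 3 (0.0567) of ZT12 or replicate 4 of ZT15 (0.0626). Smtnl2, at 8.93 ± 5.45 and 27.5 ± 4.91 CPM (adjusted p = 0.0370), passed only in the fits without replicate 2 of ZT12 or replicate 2 of ZT15, and reached 0.122 without replicate 1 of ZT12. Chosen after their values were seen, P4ha2, a relative of P4ha1, was at 7.04 and 17.2 CPM (log2 fold change 1.29), the collagen chaperone Serpinh1 at 162 and 298 CPM (0.88) and the HSP70 and HSP90 co-chaperone Stip1 at 45.0 and 90.6 CPM (1.01), each past the test.

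Among the lowest folds without overlap, Loxl1, a crosslinker of elastic fibres, fell from 22.4 ± 10.8 to 8.46 ± 1.13 CPM (2.65-fold, adjusted p = 0.00625), and Ass1, of arginine synthesis, from 3.56 ± 0.984 to 1.498 ± 0.507 CPM (2.38-fold, adjusted p = 0.00167). Both calls were lost with the 8 libraries alone (0.0880 and 0.0913) and with the 12 of lane 3 (0.0787 and 0.0540). Gm5424, a processed pseudogene that shares 84.7% of its 31-base stretches with Ass1, fell 2.40-fold, and how counts divide between the pair is uncertain. The noncoding Gm26889 lies antisense to Svep1 over 99.6% of its exonic bases and fell from 1.74 ± 0.397 to 0.430 ± 0.200 CPM; the call was lost without replicate 3 of ZT12 (adjusted p = 0.0528) or replicates 3 (0.0544) or 4 (0.0761) of ZT15. Ssc4d fell from 2.31 ± 0.397 to 0.954 ± 0.0929 CPM. B3gnt9, a glycosyltransferase gene, fell from 1.55 ± 0.272 to 0.690 ± 0.270 CPM, and was lost without replicates 2 (0.0503) or 4 (0.0544) of ZT12 or replicates 3 (0.0821) or 4 (0.0511) of ZT15.

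In the remaining lists single members or none passed, where 3.04% of all tested genes did. Kdr, the VEGF receptor of endothelial cells, rose 1.37-fold from 185 ± 10.1 to 252 ± 15.3 CPM (adjusted p = 0.00363), the 1 of 10 stroma and vessel markers past the test, while the endothelial markers Pecam1 (0.20) and Cdh5 (0.18) did not pass it. Ppan, a ribosome assembly factor, was the 1 of 29 ribosome biogenesis genes past the test (9.18 ± 2.79 and 14.6 ± 2.56 CPM, adjusted p = 0.0485), with overlap, and kept its call only without replicate 4 of ZT12 or replicate 1 of ZT15 (up to 0.175 without replicate 2 of ZT12). Of that list 10 had an unadjusted p under 0.05, and DESeq2 called 3 higher. Of 24 tested immediate early genes 0 passed, with log2 fold changes from -1.80 (Nr4a1) to 1.05 (Atf3); 1 had an unadjusted p under 0.05 by edgeR, and DESeq2 called 0.

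The first hours of light, ZT3 against ZT0, served as the comparison for the step at dark onset. This step lies within lane 2 and shares no library with the dark step; 2134 genes (13.8%) differed in it. The difference between both steps was tested in the same fit, and 1963 genes (12.7%) passed, 388 of them among the 472 genes that changed in the dark step. That difference contains the dark step itself, so genes called in the dark step are more likely to pass. The steps also lie 12 h apart, and a gene with a symmetric daily cycle would move in opposite directions in them. Of the 181 genes past the threshold in both steps, 174 moved in opposite directions and 7 in the same one. Over all 15505 tested genes 55.1% had opposite signs in the steps, and among the 472 called in the dark step 83.7%. Without replicate 4 of ZT15 80 genes passed in both steps (75 opposite), and without replicates 2 or 3 of ZT12 or replicate 3 of ZT15 95 did (92, 88 and 89 opposite).

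The heat-shock genes made mirrored steps. Their median log2 fold change was 0.91 in the first hours of dark and -0.98 in the first hours of light; 16 of 18 fell in the light step, among them all 13 that rose in the dark step, and the steps differed for 15. For Hspa1b the step was 3.33 in the dark and -3.08 in the light (difference 6.41, adjusted p = 1.15e-06), and for Hsph1 2.61 and -1.87. Cirbp fell by 1.10 and rose by 1.03 (difference -2.14, adjusted p = 2.69e-06). For Nr1d1 the steps were -1.90 and 2.20, for Dbp -1.40 and 1.71 and for Nr1d2 -0.90 and 1.80. mt-Rnr2 rose by 1.08 and fell by 0.84 on the log2 scale.

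Some genes that fell or rose in the dark step had a small or like-signed step in the light. Ciart fell in the dark step (-1.75) and had -0.79 in the light step, and the difference did not pass the test (adjusted p = 0.116). Loxl1 had -1.41 and -0.08 (difference -1.32, adjusted p = 0.0267), Foxo1 -0.73 and 0.26 (difference -0.99, adjusted p = 0.000777) and Phyhip 2.64 and -0.61 (difference 3.25, adjusted p = 0.00941). The feeding-related genes that did not pass in the dark step differed between steps in several cases: Angptl8 (1.504 and -1.38, adjusted p of the difference 0.00403), Irs2 (-1.42 and 3.24, 0.00259) and Pdk4 (-0.72 and 1.35, 0.00547). Of the 18 fasting-responsive genes 9 had a negative difference between the steps, 1 a positive one and 8 none past the test.

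**Figure D4:**
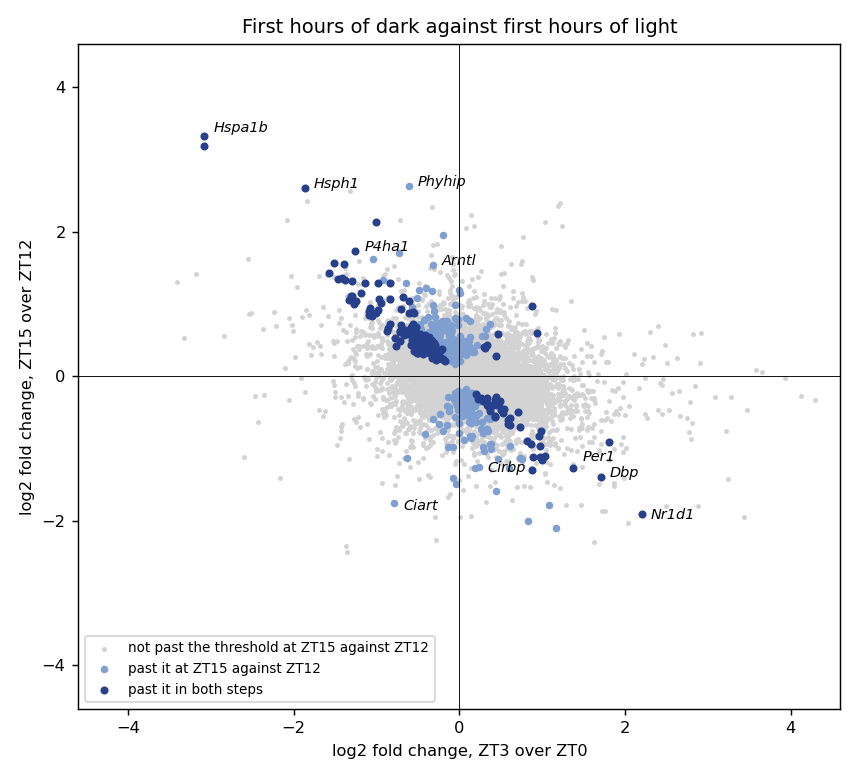
Each point is a tested gene, with its log2 fold change in the first hours of light (ZT3 over ZT0, horizontal) and of dark (ZT15 over ZT12, vertical); light blue genes passed the threshold in the dark step and dark blue genes in both, and 3 genes lie outside the axes. Of the 181 dark blue genes 174 lie in the upper left or lower right of the plot.

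Over the 8 time points, heat-shock genes differed in where ZT15 stood. Hsph1 was at 16.1 to 20.8 CPM (means) at ZT6, ZT9 and ZT12, at 127 ± 42.6 CPM at ZT15, at 96.7 ± 29.6 CPM at ZT18, at 43.1 ± 14.6 CPM at ZT21 and at 174 ± 63.6 CPM at ZT0. Of the 13 risen members 4 had their highest mean at ZT15 and 8 at ZT0. Hspa8 was higher at ZT18 (803 CPM) than at ZT15 (628 CPM). Of all 314 higher genes 156 were highest at ZT15, 100 at ZT0 and 29 at ZT18, and 133 were lowest at ZT12. Of all 15505 tested genes 2151 were highest at ZT15, 2739 at ZT0 and 1571 at ZT18, and 1643 were lowest at ZT12. Of the 158 lower genes 52 were highest at ZT12, 44 at ZT6 and 37 at ZT9, and 85 were lowest at ZT15; of all tested genes 1608, 1883 and 1719 were highest at these times and 2046 lowest at ZT15. Genes called for this step are bound to be high or low at ZT12 and ZT15, and time points of other lanes cannot be told apart from their lane, so these counts only describe. At ZT18, on lane 4, Nr1d1 was at 19.7 ± 6.73 CPM, Arntl at 15.3 ± 2.25 CPM, Cirbp at 16.6 ± 4.02 CPM and Foxo1 at 49.9 ± 4.46 CPM; these levels were not tested against lane 3.

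**Figure D5:**
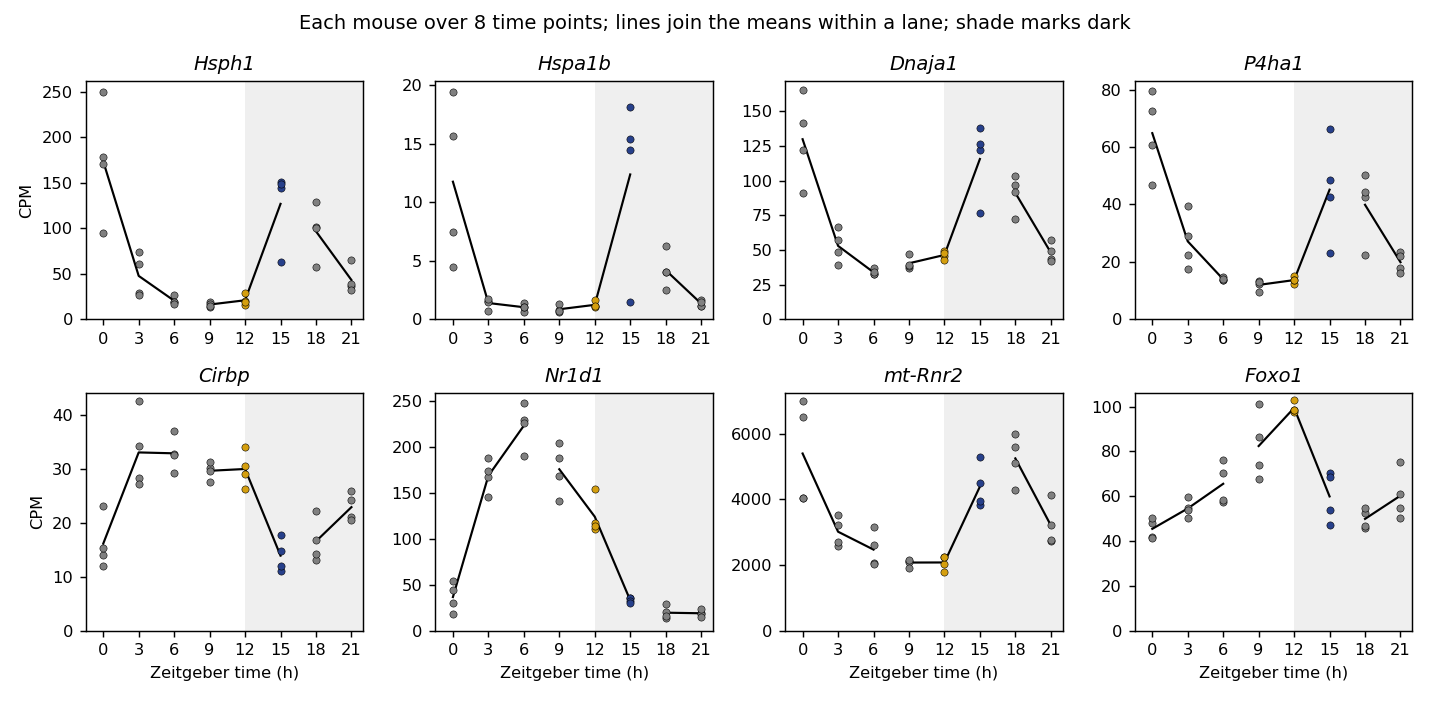
CPM of 8 genes in each mouse (points) against Zeitgeber time in hours; lines join the means of time points sequenced on the same lane, yellow marks ZT12, blue ZT15, and grey shade the dark phase. The chaperone genes and P4ha1 are low from ZT6 to ZT12 and high at ZT15 and ZT0, Cirbp runs the other way, and Nr1d1 and Foxo1 are lower at ZT15 than at ZT12.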

How the data were processed

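RNA was isolated from snap-frozen iBAT and sequenced as stranded paired-end libraries. Per the labels and the published methods, reads were mapped by the authors to mm10 with GSNAP and counted per Ensembl gene with HTSeq (0.6.1), and the raw counts were deposited unnormalized; whether counting used strand is not given in the sources used here. The table held 50686 genes, 20100 without a count; 50376 identifiers had a symbol.

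All 32 libraries were fitted in edgeR (4.0.16, R 4.3.3) with 1 coefficient per time point, filterByExpr (15505 genes, 99.9% of counts), TMM factors and the quasi-likelihood test; p-values were adjusted (Benjamini-Hochberg) over all tested genes, with a threshold of 0.05. SE is that of the log2 fold change, SD is over 4 mice. p-values measure the spread between mice. Contrasts were ZT15 minus ZT12, and this minus ZT3 minus ZT0. On counts simulated for ZT15 against ZT12 (15411 genes), 17.9% of 1.5-fold, 64.2% of 2-fold and 97.0% of 4-fold changes were recovered, and 5 of 15211 unchanged genes were called. The simulation used the trend of spread over expression level, not the spread of each gene, so recovery of single genes can differ. Alternatives included DESeq2 (1.42.0).

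Named were the 12 highest and 12 lowest folds among genes past the threshold without overlap and with a mean of at least 1 CPM, every list member past it, and a fixed set of 35 genes, 1 of which is not reported here. The comparison, and so its members, and the 29 gene lists were chosen with earlier results of these data known. Coordinates and shared 31-base stretches come from GENCODE (GRCm38), which is not the Ensembl release used for counting; motifs were searched on both strands of the 250 bases before RefSeq starts (GRCm38.p6).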

Additional observations from a re-analysis of the deposited data

Results flagged for a closer look

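Within a time point, 17 values of single mice lay far from the other 3 mice, where 73 named genes were screened at both time points. Chance alone gives about 1 such value in 20 groups of 4, so several of the 17 could arise in this way. Values of the same mouse are also not independent. Replicate 1 of ZT12 had Acly at 3177 CPM (the other mice 1686 to 1889 CPM), Nr1d1 at 154 CPM (the other mice 111 to 117 CPM), Phyhip at 1.02 CPM (the other mice 0.364 to 0.465 CPM) and Tsc22d3 at 62.2 CPM (the other mice 88.9 to 94.4 CPM). Replicate 2 of ZT12 had Pdk4 at 1046 CPM (the other mice 629.7 to 695 CPM). Replicate 3 of ZT12 had Gm5424 at 6.56 CPM (the other mice 4.83 to 5.10 CPM) and Per1 at 140.1 CPM (the other mice 109 to 112 CPM). Replicate 4 of ZT12 had Hsp90ab1 at 626 CPM (the other mice 707 to 717 CPM). Replicate 1 of ZT15 had Acsl1 at 1179 CPM (the other mice 1637 to 1723 CPM), Pnpla2 at 2654 CPM (the other mice 2991 to 3029 CPM) and Ucp1 at 1134 CPM (the other mice 1911 to 2033 CPM). Replicate 2 of ZT15 had Chordc1 at 53.2 CPM (the other mice 72.9 to 76.3 CPM), Ciart at 7.39 CPM (the other mice 4.42 to 4.72 CPM), Dio2 at 30.6 CPM (the other mice 10.5 to 13.3 CPM), Dnajb1 at 26.9 CPM (the other mice 55.1 to 56.6 CPM), Gm7816 at 8.63 CPM (the other mice 14.0 to 14.4 CPM) and Hsph1 at 63.1 CPM (the other mice 145 to 151 CPM).

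The step at dark onset differed from the step at light onset for 52 named genes (edgeR, adjusted p under 0.05), each value being the log2 fold change of ZT15 over ZT12 minus that of ZT3 over ZT0. Heat-shock genes had differences of Hspa1b 6.41, Hspa1a 6.27, Hsph1 4.48, Dnaja1 2.61, Hspb1 2.43, Chordc1 2.42, Dnajb1 2.39, Hsp90aa1 2.27, Hspa8 2.00, Ahsa1 1.53, Bag3 1.28, Hsp90ab1 1.15 and Dnajb4 1.06. Clock genes had differences of Nr1d1 -4.10, Dbp -3.10, Nr1d2 -2.71, Per1 -2.64, Per3 -0.95, Per2 2.17, Cry1 1.88, Arntl 1.86 and Clock 0.46. Genes of fasting, feeding and metabolism had differences of Irs2 -4.65, Ehhadh -2.87, Pdk4 -2.07, Ddit4 -2.17, Fbxo21 -1.75, Klf15 -1.57, Pck1 -1.56, Ass1 -1.49, Foxo1 -0.99, Angptl8 2.88, Ppp1r3c 3.02 and Plin3 0.81. The remaining genes had differences of B3gnt9 -2.16, Banp 2.81, Cirbp -2.14, Gm15542 2.77, Gm2673 2.25, Gm26889 -2.83, Gm5424 -1.45, Gm7816 2.71, Kdr 0.59, Loxl1 -1.32, mt-Rnr1 1.65, mt-Rnr2 1.92, mt-Ti 2.14, P4ha1 2.99, Phyhip 3.25, Ppan 0.89, Smtnl2 2.66 and Ssc4d -1.87. Many of these genes were named for their dark step, which is part of the difference. The steps belong to different lanes, but each step lies within 1 lane.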

How the results depend on the processing

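The count of 472 genes past the threshold, 314 of them higher and 158 lower, changed with the test, the threshold and the libraries fitted. It was 84 (57 higher, 27 lower) with the 8 libraries alone, 97 (77 and 20, so 79.38% higher against 66.53%) with the 12 libraries of lane 3, 244 (171 and 73) without a filter on low counts, 122 (86 and 36) at an adjusted p under 0.01 and 8 (6 and 2) against a 1.5-fold change; the last 2 settings are stricter by construction, and the cause of the others was not tested. Scaling by library size gave 95 lower genes and DESeq2 255, with 365 and 659 genes in all. Leaving out 1 mouse gave 183 to 471 genes, 132 to 319 higher and 51 to 152 lower. DESeq2-type size factors gave 455 genes, removal of mitochondrially encoded genes 459 and a minimum mean of 1 CPM 503. Of the named genes, 18 lost their call with the 8 libraries and 17 with the 12 of lane 3. No named gene changed direction past the threshold under any of these settings.

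Replicate numbers did not pair the mice: same-numbered mice of ZT12 and ZT15 deviated with correlations of -0.58, -0.27, 0.03 and 0.45. With a replicate block 452 genes passed (309 higher, 143 lower), 410 of them shared with the fit without it, and the steps differed for 1913 genes against 1963. With 4 mice, 17.9% of simulated 1.5-fold changes were recovered, so a smaller change that missed the threshold is not shown to be absent.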
